A study of Mus musculus with 27 samples.

Results

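The genes described here are *Gm14434*, *Gm14305*, *Gm14410*, *Gm14325* and *Gm14326*, 5 closely related zinc finger genes at the distal end of mouse chromosome 2. They were picked by symbol, and because of how their read counts behaved in these livers, out of 17655 genes listed in the 4 deposited tables. Their own levels are therefore given as a description, with no test. All 5 were listed in every table. RNA was measured by sequencing in whole liver of 27 mice, 3 in each of 9 groups, and every mouse was homozygous for a floxed *Kdm5b* allele (*Kdm5b* fl/fl). *Kdm5b* encodes an enzyme that removes methyl groups from lysine 4 of histone H3. Mice on the Western diet with alcohol (WDA), labelled as fed for 8 weeks, received AAV8-control (WT), AAV8-CMV-Cre (KO) or, in females only, AAV8-TBG-Cre (HepKO). The CMV promoter is active in many cell types and the TBG promoter is directed to hepatocytes. Resolution (Res) mice were labelled as fed WDA for 16 weeks, given AAV-control (WT) or AAV-CMV-Cre (KO), and left to resolve for 4 weeks. In the paper, resolving mice were moved to chow and plain water and received the vector after alcohol ended. WDA and Res mice belong to separate experiments. Stage, length of feeding, diet at the end, timing of the vector and experiment therefore cannot be told apart. The labels give no ages. In the feeding experiments as published, mice were 7 to 8 weeks old when feeding began.

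Zinc finger proteins of this class read DNA through tandem fingers, each held by a pair of cysteines and a pair of histidines around a zinc ion. Many of them also carry a KRAB domain, which brings in the corepressor TRIM28 (KAP1) and the H3K9 methyltransferase SETDB1, and silence retrotransposons and other repeats. Their genes lie in clusters that grew by tandem duplication, so that neighbouring copies can be almost identical. The chromosome 2 cluster is one of the large rodent-specific ones.

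In GRCm38.p6 the 5 genes span 1.49 Mb of chromosome 2. *Gm14434* (NCBI gene 668039) lies at chr2:176470369-176486853, *Gm14305* (100043387) at chr2:176708353-176721813 and *Gm14410* (100043403) at chr2:177190575-177206497. *Gm14325* (329575) lies at chr2:177828991-177840336 and *Gm14326* (665211) at chr2:177935993-177957386. The longest reading frame of their annotated transcripts held 13 zinc fingers in *Gm14434*, 14 in *Gm14305* and in *Gm14325*, 9 in *Gm14410* and 15 in *Gm14326*, counted by the spacing of cysteines and histidines. Each of the 5 frames also matched a pattern for the KRAB A box, which was widened after the frames were seen because a narrower one missed them. Among listed genes within 1 Mb, the frames of 10 of 15 that are zinc finger genes by symbol matched it, and 5 of 11 others. Of the frames of 348 Zfp genes outside the region, 150 (43.1%) matched the same pattern. Aligned frames were identical at 91.6% (*Gm14305* and *Gm14325*) to 98.8% of residues (*Gm14434* and *Gm14305*).

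The upstream sequences are printed because they show how alike the 5 copies are outside the coding part. Each is the 250 bases before a transcript start site in RefSeq on GRCm38.p6, read 5′ to 3′ on the gene's strand. This start site is not always the outer end of the gene as given above, so 104 bases of the *Gm14434* window, 98 of the *Gm14326* window and 1 of the *Gm14410* window lie within the gene's bounds. Capitals mark the CCAAT box, whose letters were searched on both strands. *Gm14305* is on the plus strand (chr2:176708103-176708352) and the other 4 are on the minus strand (chr2:176486750-176486999, chr2:177206497-177206746, chr2:177840337-177840586 and chr2:177957289-177957538, in the order printed).
Gm14434: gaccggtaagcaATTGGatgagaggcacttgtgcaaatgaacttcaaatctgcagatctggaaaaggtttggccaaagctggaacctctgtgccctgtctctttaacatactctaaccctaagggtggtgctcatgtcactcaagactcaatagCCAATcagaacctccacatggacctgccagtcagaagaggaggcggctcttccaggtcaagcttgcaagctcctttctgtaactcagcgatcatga
Gm14305: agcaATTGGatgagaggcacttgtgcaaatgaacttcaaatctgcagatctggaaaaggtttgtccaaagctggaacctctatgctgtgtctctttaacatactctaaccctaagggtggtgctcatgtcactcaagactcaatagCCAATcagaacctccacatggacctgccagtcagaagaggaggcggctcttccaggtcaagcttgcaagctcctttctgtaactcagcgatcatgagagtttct
Gm14410: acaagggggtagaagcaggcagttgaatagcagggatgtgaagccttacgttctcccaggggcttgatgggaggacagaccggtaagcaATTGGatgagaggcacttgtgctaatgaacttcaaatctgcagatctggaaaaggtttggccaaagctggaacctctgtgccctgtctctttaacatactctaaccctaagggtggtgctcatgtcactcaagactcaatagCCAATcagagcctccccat
Gm14325: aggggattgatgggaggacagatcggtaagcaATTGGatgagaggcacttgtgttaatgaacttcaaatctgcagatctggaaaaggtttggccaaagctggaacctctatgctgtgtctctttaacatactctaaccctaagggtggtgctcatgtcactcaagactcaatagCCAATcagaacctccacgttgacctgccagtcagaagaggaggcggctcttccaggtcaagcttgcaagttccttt
Gm14326: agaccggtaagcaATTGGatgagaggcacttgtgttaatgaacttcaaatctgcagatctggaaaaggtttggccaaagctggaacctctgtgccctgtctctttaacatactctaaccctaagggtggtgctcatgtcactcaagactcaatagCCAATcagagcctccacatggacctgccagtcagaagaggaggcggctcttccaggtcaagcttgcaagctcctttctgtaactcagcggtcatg

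Over their overlapping bases these sequences were identical at 95.8% to 98.9% of positions. Each held the CCAAT letters at 2 places, whereas 34.5% of 27025 promoter windows of the same length in the table held them at least once. The 5 are copies of each other, so they do not count as separate occurrences. Of 3 other motifs searched on both strands, each was in 0 of the 5 windows. The GC box (letters GGGCGG) was in 32.9% of all windows, the TATA box (letters TATAAA) in 13% and the E-box (letters CACGTG) in 6.0%. The windows held 46.8% to 49.6% G and C and 2 or 3 CpG, against medians of 52% and 6 over all windows.

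The longest stretch that all 5 had without a difference was 68 bases, with the second CCAAT box near its end:
Shared stretch: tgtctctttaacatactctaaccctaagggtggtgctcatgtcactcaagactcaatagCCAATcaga
It lay at positions -155 to -88 from the start site in *Gm14434*, -163 to -96 in *Gm14305*, -78 to -11 in *Gm14410*, -135 to -68 in *Gm14325* and -154 to -87 in *Gm14326*. Of the 27025 genes in the promoter table, 15 held this stretch exactly, and all 15 are on chromosome 2. Besides the 5, they include *Gm14308*, *Gm14322*, *Gm2026*, *Gm4724*, *Gm2007*, *Gm6710* and *2210418O10Rik*, which are listed in the deposited tables and lie within 1 Mb of the 5 genes.

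Reads of such genes are hard to assign. Of all stretches of 100 bases in the annotated transcripts of *Gm14434*, 99.7% also occurred in a transcript of another gene, mainly *Gm2026*, with which it shared 96.9%. The shares were 69.2% for *Gm14305*, 75.2% for *Gm14410*, 58.3% for *Gm14325* and 61.6% for *Gm14326*. With stretches of 50 bases the lowest was 82.2%, in *Gm14325*, and the highest 100%, in *Gm14434*. The deposited counts are estimates that divide shared reads among genes, so the count of any single copy is uncertain, and most of all that of *Gm14434*. For that reason the sum of the 5 counts (the family sum) is given beside each gene. The sum does not take in reads that were given to other copies outside the 5.

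Library totals ranged from 14634602 to 19388251 counts, with a median of 17944536. Levels per mouse are in CPM, counts scaled by library total and TMM factors, and n is 3 mice a group. *Kdm5b* itself was lower in every Cre group than in its control group. It was 18.1 ± 5.20 (SD) CPM in KO against 26.0 ± 4.93 in WT WDA females, 21.5 ± 0.79 against 24.3 ± 0.71 in WDA males, 12.0 ± 1.26 against 17.1 ± 0.44 in Res females and 12.6 ± 4.61 against 19.2 ± 0.45 in Res males, and 13.3 ± 4.63 in HepKO females. The ranges overlapped only in WDA females, KO against WT. The hepatocyte markers *Alb*, *Apoa1*, *Ttr* and *Hnf4a* summed to between 64580 and 157000 CPM. Among the males, Res KO mouse 5 stood apart: *Sult3a1*, a sulfotransferase of female liver, was at 14.8 CPM there and at most 1.23 CPM in the other males, against a median of 13.8 CPM in females. *Ddx3y*, from the Y chromosome, was at 37.8 CPM in that mouse, the lowest of all males, and its library was the smallest of the 27. The differences that involve Res KO males are therefore also given without mouse 5 where named below.

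All 5 genes were expressed at a low level. On the FPKM scale, which takes transcript length into account, *Gm14326* had the highest median over the 27 livers at 3.31 (0.72 to 6.03), followed by *Gm14325* at 2.25 (0.32 to 4.49). *Gm14305* had a median FPKM of 1.37 (0.20 to 2.62) and *Gm14410* one of 1.06 (0.16 to 2.76). *Gm14434* was close to the limit of detection, with a median FPKM of 0.10 and a highest value of 0.41. Its estimated count ran from 0 in WDA WT female 7 and Res WT male 7 to 54.9 in Res KO male 5. *Gm14326* and *Gm14325* supplied most of the family sum, with median shares of its counts of 38.1% and 35.4%. *Gm14410* supplied 15.2%, *Gm14305* 6.39% and *Gm14434* 2.60%.

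The family varied widely between mice of the same group. The family sum was lowest at 6.06 CPM in WDA WT female 6 (109 counts) and highest at 46.9 CPM in Res KO male 11, a 7.73-fold range. On the log2 scale its SD within groups was 0.62. Over the 13534 genes kept across all 27 libraries the median SD was 0.26 and the 90th percentile 0.71. The SD was 0.56 for *Gm14326*, 0.66 for *Gm14305*, 0.72 for *Gm14325*, 0.81 for *Gm14410* and 1.17 for *Gm14434*. In bulk liver, fewer cells of a type and less RNA per cell cannot be told apart.

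Ordered by mean family sum, the groups ran from WDA WT females (19.6 ± 12.6 CPM) through Res WT males (21.01 ± 2.15), WDA HepKO females (23.5 ± 6.67), WDA KO males (24.6 ± 13.3), Res KO females (26.7 ± 9.97), WDA KO females (27.8 ± 12.0), WDA WT males (33.7 ± 0.56) and Res WT females (36.7 ± 13.7) to Res KO males (40.9 ± 7.25). Each neighbouring pair in this order overlapped. The distance between neighbouring means was 0.10 to 0.70 times their pooled SD, so no step in the order was larger than the spread between mice. WDA WT males and Res WT males stood out for how close their mice lay to each other.

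**Figure D1:**
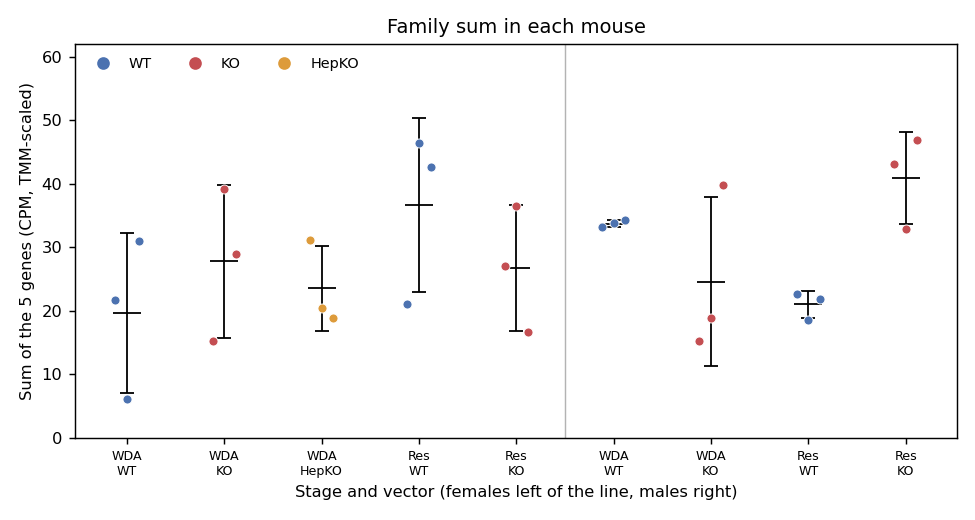
Sum of the 5 genes in CPM (y axis, TMM-scaled) for each of the 27 mice, by stage and vector, with females left of the line and males right. Points are mice, and the black bars are the group mean and SD (n = 3). Res KO males lie between 32.8 and 46.9 CPM and Res WT males between 18.6 and 22.6 CPM, while WDA WT females spread from 6.06 to 31.0 CPM.

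The clearest separation by vector was among Res males. The family sum was 22.6, 18.6 and 21.9 CPM in WT mice 7, 8 and 9, and 43.0, 32.8 and 46.9 CPM in KO mice 5, 6 and 11. All 3 KO males lay above all 3 WT males. The difference of means on the log2 scale was 0.95, 1.93-fold, against a within-group SD of 0.22. Without mouse 5 it was 0.90, and leaving out any 1 of the 6 mice gave 0.84 to 1.10.

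The 2 most abundant genes behaved alike. *Gm14325* was at 8.42, 7.84 and 8.29 CPM in WT mice 7, 8 and 9 and at 16.7, 11.1 and 18.2 CPM in KO mice 5, 6 and 11. *Gm14326* was at 8.60, 6.28 and 8.95 CPM in WT and at 13.8, 11.8 and 16.6 CPM in KO. In both genes KO mouse 6 was the lowest of the KO males and still above the WT males. The fitted log2 fold changes were 0.92 (SE 0.21) and 0.84 (SE 0.20). Without mouse 5 both were 0.83.

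*Gm14410* was at 4.61, 3.08 and 3.19 CPM in WT and at 6.55, 6.63 and 7.89 CPM in KO, in the same order of mice. *Gm14305* was at 0.96, 1.23 and 1.12 CPM in WT and at 2.67, 2.24 and 2.73 CPM in KO. The groups did not overlap in either gene. Their log2 fold changes were 0.97 (SE 0.23) and 1.22 (SE 0.30), and 0.99 and 1.16 without mouse 5. *Gm14434* was at 0, 0.13 and 0.32 CPM in WT and at 3.34, 1.10 and 1.44 CPM in KO. That is 0 to 6.06 estimated counts a library against 18.2 to 54.9, and mouse 5 was the highest. The fitted log2 fold change of 3.63 (SE 0.79) rests on these few reads and depends on the prior count, and it was 2.97 without mouse 5. Across all genes tested, 2.42% of 12620 lay higher in KO without overlap. All 5 members did, but they were chosen on these counts, so nothing is read from this.

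**Figure D2:**
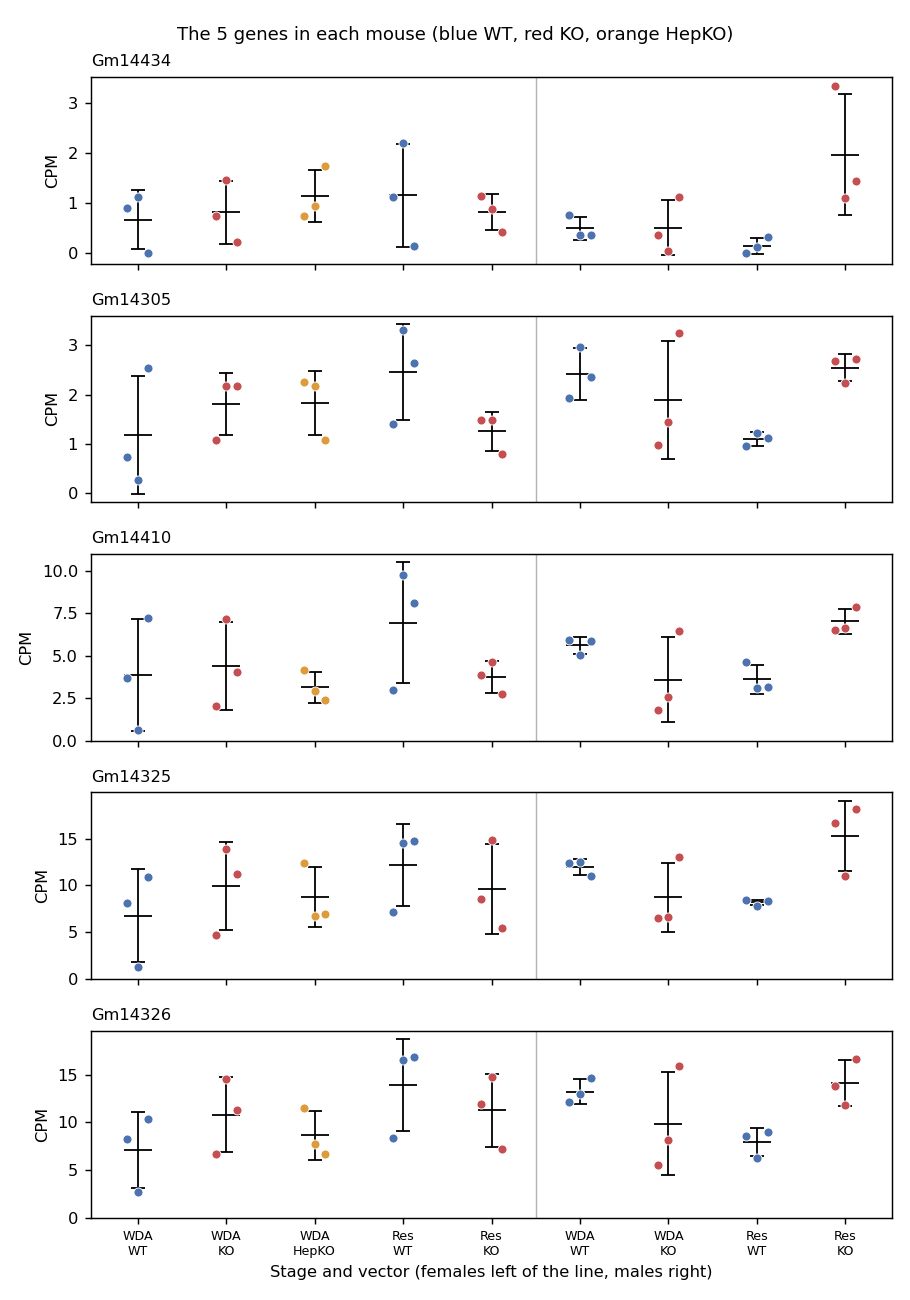
CPM (y axis, its own scale in each panel) of *Gm14434*, *Gm14305*, *Gm14410*, *Gm14325* and *Gm14326*, top to bottom, in each of the 27 mice by stage and vector, with females left of the line and males right. Points are mice and black bars the group mean and SD (n = 3). In Res males every KO mouse lies above every WT mouse in all 5 panels, and *Gm14434* stays below 3.5 CPM throughout.

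In Res females the differences had the other sign and the groups overlapped. The family sum was 20.97, 46.4 and 42.6 CPM in WT mice 1, 12 and 13, and 27, 36.6 and 16.6 CPM in KO mice 2, 3 and 4. Both groups held low and high mice. The log2 difference was -0.44 with a within-group SD of 0.60, and -0.80 without WT mouse 1. Fitted log2 fold changes ran from -1.02 (SE 0.42) for *Gm14305* to -0.36 (SE 0.34) for *Gm14326*, and 0 of 5 genes separated the groups, against 25.8% of all genes in either direction. The difference in the KO effect between the sexes was tested across all genes among Res mice, which was added after the data were seen. It gave 0 calls in 13178 genes (0%) by edgeR at an adjusted p of 0.05, 1512 at an unadjusted p under 0.05, and 78 calls by DESeq2.

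On WDA, KO and WT overlapped in each sex. In WDA females the family sum was 21.7, 6.06 and 31.0 CPM in WT mice 5, 6 and 7, and 15.2, 39.1 and 29.0 CPM in KO mice 1, 2 and 3. WT mouse 6 had the lowest value of all 27. The log2 difference of 0.69 (within-group SD 0.997) rested on that mouse and was -0.01 without it. For HepKO mice 13, 14 and 15 the sum was 31.1, 20.5 and 18.9 CPM. The difference from the same WT females was 0.51, and -0.18 without mouse 6. In WDA males the sum was 33.1, 33.8 and 34.2 CPM in WT mice 19, 20 and 21, and 15.2, 18.8 and 39.8 CPM in KO mice 16, 17 and 18. The KO males lay on either side of the narrow WT range, with a log2 difference of -0.58. The members that separated the groups numbered 0 of 5 in WDA females (background 8.94%), 0 of 4 tested in WDA males (16%) and 0 of 5 for HepKO (18.7%).

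**Figure D3:**
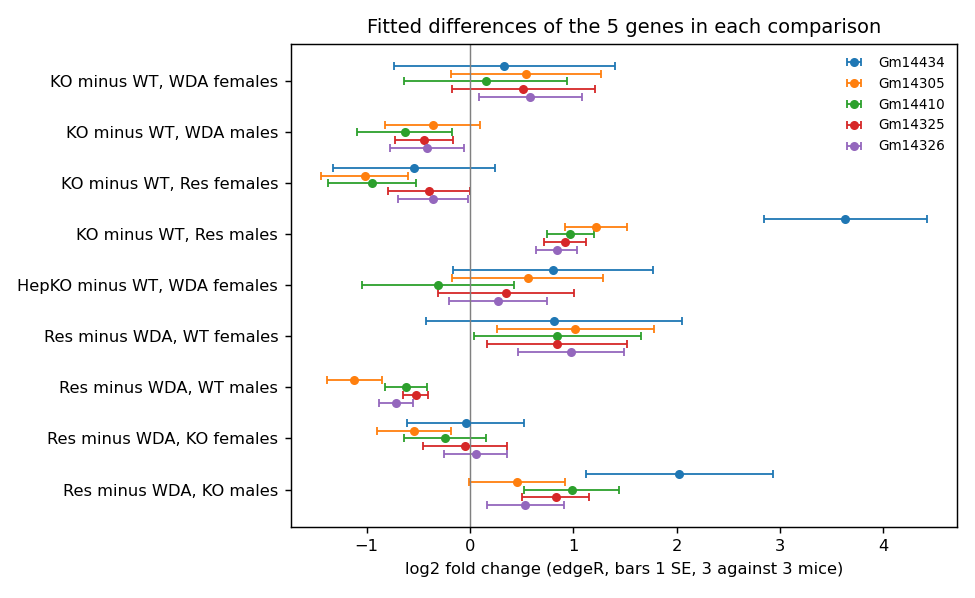
Fitted log2 fold change (x axis, edgeR, bars 1 SE, 3 against 3 mice) of each of the 5 genes in 9 comparisons (y axis). Points right of the line are higher in the group named first. *Gm14434* was too low to be tested in WDA males, KO against WT, and in WT males, Res against WDA. In Res males, KO minus WT, all 5 points lie between 0.84 and 3.63.

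Between stages, WT males were the group in which the family sum separated. It was 33.1 to 34.2 CPM in the WDA WT males and 18.6 to 22.6 CPM in the Res WT males. The log2 difference was -0.68, against a within-group SD of 0.11, and it ran from -0.74 to -0.60 when 1 mouse was left out. These Res WT males are the same 3 mice as in the comparison with Res KO males, so the pair of differences is not independent. *Gm14305* was at 1.93, 2.97 and 2.36 CPM on WDA and 0.96 to 1.23 CPM in Res, a log2 fold change of -1.12 (SE 0.27). *Gm14326* was at 12.1, 12.9 and 14.7 CPM on WDA and 6.28 to 8.95 CPM in Res (-0.71, SE 0.17). The log2 fold change was -0.52 (SE 0.12) for *Gm14325* and -0.62 (SE 0.20) for *Gm14410*. Each of the 4 genes tested was lower in Res without overlap, as were 18.5% of all genes tested. The summed proliferation markers (*Mki67*, *Top2a*, *Ccnb1*, *Cdk1*, all detected) also did not overlap here, at 2.74 to 3.71 CPM on WDA and 4.47 to 6.52 CPM in Res. Of the immune cell markers followed, *Cd3e* of T cells (log2 fold change 1.79, SE 0.41, adjusted p = 0.0318), *Nkg7* of cytotoxic lymphocytes (1.66, SE 0.42, adjusted p = 0.0411) and *Ptprc* of leukocytes (0.54, SE 0.13, adjusted p = 0.0414) rose by edgeR, with p adjusted over all genes. *Cd3e* was at a low level (average log2 CPM -0.67), and DESeq2 did not call it (adjusted p = 0.0836). *Cd79a* of B cells was at 0.86 (SE 0.30), with an adjusted p of 0.0999 by edgeR. By edgeR the macrophage marker *Lyz2* rose (0.95, SE 0.15, adjusted p = 0.0115), whereas *Cd68* (0.048), *Adgre1* (0.226) and *Clec4f* (-0.225) did not pass. The cholangiocyte marker *Sox9* (1.95, SE 0.34, adjusted p = 0.0154) and the endothelial marker *Lyve1* (0.997, SE 0.13, adjusted p = 0.00636) also rose. *Epcam* (0.929), *Pecam1* (0.207), *Kdr* (-0.364) and *Stab2* (-0.297) did not pass. The part of all these cells in the result was not tested.

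In the other 3 stage comparisons the family sums overlapped. In KO males the sum was 15.2 to 39.8 CPM on WDA and 32.8 to 46.9 CPM in Res, a log2 difference of 0.84, and 0.80 without mouse 5. Only *Gm14410* separated there, at 1.78, 2.57 and 6.46 CPM on WDA against 6.55, 6.63 and 7.89 CPM in Res, with 7.43% of all genes higher without overlap. The gap between its groups was narrow. In WT females the log2 difference was 1.11 with a within-group SD of 0.97, and 0.41 without WDA mouse 6. In KO females it was -0.02 and changed sign when any 1 of 3 mice was left out. Of the members, 0 of 5 separated in WT females (20.6% of all genes) and 0 of 5 in KO females (40.6%).

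Over the 24 WT and KO mice the family sum differed little by any factor. KO minus WT was 0.15 on the log2 scale within sex and stage, Res minus WDA was 0.31 and male minus female was 0.20, each under the within-group SD of 0.65. The first of these was -0.02 without WDA WT female 6. Fitted log2 fold changes of KO against WT ran from -0.10 for *Gm14410* (SE 0.32) to 0.68 for *Gm14434* (SE 0.63).

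From mouse to mouse, 4 of the 5 genes varied together and *Gm14434* did not. Over the 27 libraries the Spearman correlation between *Gm14305*, *Gm14410*, *Gm14325* and *Gm14326* ran from 0.81 to 0.93. After each group's mean was subtracted it ran from 0.77 to 0.93. The correlation of *Gm14434* with the others was 0.16 to 0.28, and -0.05 to 0.06 within groups. These values are a description, since the genes share reads, libraries and base composition. WDA WT female 6 shows the contrast: its *Gm14325* level was 1.35 CPM, the lowest of 27, whereas its *Gm14434* level of 1.12 CPM was above the median of 0.76 and made up 18.4% of its family sum.

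Other genes of the cluster followed the same pattern. Besides the 5, 27 listed genes lie within 1 Mb, of which 15 are zinc finger genes by symbol, and 21 were high enough to be kept over all libraries. Their median correlation with the family sum was 0.65, against 0.00 over all 13534 genes. The correlation was above 0.7 for 9 of the 21, and for 16 of the 13534 genes in all, 4 of which are members that are part of the sum. *Zfp971* (0.93), *Gm14295* (0.92), *Gm14322* (0.88), *Zfp970* (0.87) and *Gm2004* (0.85) came first. *Zfp970* was the most abundant zinc finger neighbour, at 3.74 to 87.5 CPM.

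The likeness was also set beside the shared upstream stretch, without a test. Neighbours that hold the stretch had a median correlation of 0.61 (7 genes, -0.15 to 0.88) and the others one of 0.67 (14 genes, 0.05 to 0.93). *Gm14308*, which holds the stretch and lies between *Gm14434* and *Gm14305*, had a correlation of -0.15. *Zfp973*, next to it, had one of 0.05. The 16 neighbours with 3 or more zinc fingers had a median correlation of 0.72, and the 5 with fewer one of 0.51. Among the other abundant neighbours that are zinc finger genes by symbol, *Zfp965* (median 7.73 CPM, correlation 0.77), *Zfp931* (4.64 CPM, 0.71), *Gm14421* (1.57 CPM, 0.69), *Gm14288* (3.40 CPM, 0.62) and *Gm14296* (9.68 CPM, 0.59) had lower correlations than these first 5. The longest reading frame of *Gm14296* held 0 zinc fingers. Of the 26 region genes kept, 12 had their lowest value of the 27 libraries in WDA WT female 6, and 5 each their highest in Res KO male 11 and in Res WT female 12.

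**Figure D4:**
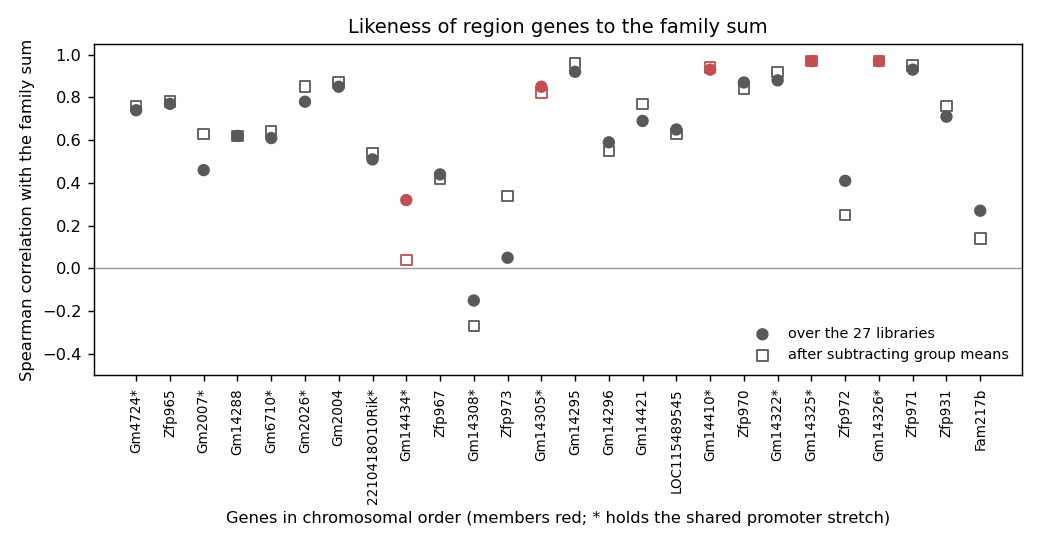
Spearman correlation with the family sum (y axis) for the 26 region genes kept, in chromosomal order (x axis), with the 5 members in red and an asterisk on genes that hold the shared upstream stretch. Circles are correlation over 27 libraries and squares correlation after subtracting group means. Most genes lie above 0.4, while *Gm14308*, *Zfp973* and *Fam217b* lie near or below 0.3, and *Gm14434* falls to 0.04 within groups.

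The neighbours were not used to choose the members and were tested by edgeR's quasi-likelihood test with adjustment over all genes. In KO against WT, 0 neighbours passed in Res males (5 at an unadjusted p under 0.05, 0 by DESeq2), where 17 of 19 tested had positive log2 fold changes with a median of 0.53, against 0.01 over all genes. There, 6 of the 19 were higher in KO without overlap, against 2.42% of all genes. Without mouse 5, 18 of 20 were positive with a median of 0.52, 8 were higher without overlap and 0 passed. In that smaller set of mice 5.81% of all genes were higher without overlap. In Res females 0 passed (2 by DESeq2), 16 of 19 were negative and the median was -0.44, against -0.02 over all genes. No gene of any kind passed in the 5 KO or HepKO comparisons or over the 24 mice (0% of 12397 to 13519 genes tested), with 183 to 2413 genes at an unadjusted p under 0.05 and 7 to 607 called by DESeq2. The neighbours share reads with the members, so they are not a separate measurement of the cluster.

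In WT males, Res against WDA, 2 of 18 neighbours tested passed (11.1%), a share near the 11% of all genes called in either direction. Both neighbours fell, whereas of all 12408 genes tested 742 fell and 619 rose. *Zfp971* was at 9.96, 11.1 and 12.0 CPM on WDA and 7.53, 4.85 and 5.05 CPM in Res (log2 fold change -0.91, SE 0.19, adjusted p = 0.025). *Gm14295* was at 9.40, 12.5 and 11.0 CPM and 6.36, 5.82 and 7.44 CPM (-0.72, SE 0.16, adjusted p = 0.0316). For both genes the 3 Res males lay below the 3 WDA males. The median of the 18 was -0.42, against 0.02 over all genes. DESeq2 called 6 of them, and a fit with a spread shared by all groups called 0. Without any 1 of the 3 WDA WT males edgeR also called 0, without Res WT male 7 or 8 it called 1, and without Res WT male 9 it called 7. In WT females and KO males 0 of the 12603 and 12747 genes tested passed (0%), with 1716 and 819 at an unadjusted p under 0.05 and 387 and 79 called by DESeq2. In KO females 0 of 18 neighbours passed (4 at an unadjusted p under 0.05, 1 by DESeq2), with 20.4% of all genes called. Over the 24 mice, Res against WDA, 29.5% of all genes passed, and of 20 neighbours 2 did. *LOC115489545* (0.91, SE 0.30, adjusted p = 0.0242) and *Zfp967* (3.65, SE 1.02, adjusted p = 0.0116) rose. *Zfp967* was at 0 in 11 of 12 WDA and 5 of 12 Res libraries and reached 21.5 counts at most. It was listed in 3 of the 4 tables and was given a count of 0 in the other, and DESeq2 did not call it (adjusted p = 0.0688). Between males and females 0 of 20 neighbours passed (2 at an unadjusted p under 0.05, 0 by DESeq2), with 9.2% of all genes called.

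The corepressor genes that zinc finger proteins of this class work with were followed as a list of 28, with TRIM28, SETDB1, HP1, NuRD and DNA methylation partners. The list also held *Zfp57* and *Zfp809*, which are zinc finger genes themselves and also count among the Zfp genes outside the region. In KO or HepKO against WT, 0 passed in each single comparison and over the 24 mice, with 0 to 6 at an unadjusted p under 0.05 and 0 called by DESeq2. In the comparisons between stages in which any gene passed, the share of the list called in either direction was below that of all genes. In WT males, Res against WDA, 2 of 26 tested passed (7.69%, against 11% of all genes). Both rose, whereas of all 12408 genes tested 619 rose and 742 fell. The 2 were *Chd4*, the NuRD remodeller (0.56, SE 0.10, adjusted p = 0.0163), and *Setdb1* (0.37, SE 0.09, adjusted p = 0.0371). DESeq2 called 3 of the list there, among them *Chd4* (adjusted p = 0.000101) but not *Setdb1* (adjusted p = 0.0528). *Trim28* was at 0.33 (SE 0.11) there, with an adjusted p of 0.0797. In KO females 1 of 26 rose (3.85%, against 20.4%), again *Chd4*, by 0.40 (SE 0.09, adjusted p = 0.0177). For the neighbours and corepressor genes called in WT males or KO females, fits without 1 mouse kept 9 calls and lost 21. Over the 24 mice 5 of 28 rose and 2 fell (25%, against 29.5%). Those that rose were *Chd4* (0.40, adjusted p = 0.000467), *Atrx*, a chromatin remodeller (0.28, adjusted p = 0.0126), *Mta2*, a NuRD subunit (0.16, adjusted p = 0.0154), *Atf7ip*, a partner of SETDB1 (0.24, adjusted p = 0.0191), and *Setdb1* (0.20, adjusted p = 0.0216). Those that fell were *Cbx1*, an HP1 protein (-0.19, adjusted p = 0.0102), and *Chd3*, a NuRD remodeller (-0.24, adjusted p = 0.0191). The median of the 28 was -0.01, against 0.00 over all genes. Between the sexes 1 of 28 passed (3.57%, against 9.2% of all genes), *Setdb1*, which was higher in males (0.25, SE 0.07, adjusted p = 0.0217). Over the 27 libraries *Trim28* had a correlation of -0.11 with the family sum and *Kdm5b* one of -0.21.

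Outside the 1 Mb window, the 3 genes most like the family sum over 27 libraries were also on chromosome 2, before the window. These were *Gm14440* (correlation 0.82), *Gm14393* (0.81) and *Gm14444* (0.72). *Ddx6* on chromosome 9 and *Pja2* on chromosome 17 followed at 0.66. The lowest were *Lrp10* and *Ltbr* (-0.73), *Arhgef10l* (-0.71), *Ctdnep1* (-0.69) and *Gnb2* (-0.67). Within groups the highest were *Gm14444* and *Gm14393* (0.80), *Gm14440* (0.77), *Creb1* (0.76) and *Hmgxb4* (0.74).

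Base composition moved with the family. The transcripts of the 5 genes held 37.8% to 40.7% G and C, below at least 96% of the genes kept, whose median was 50.7%. For each library, the level of the 10% of genes richest in G and C minus that of the 10% poorest was taken on the log2 scale, a measure added after the data were seen. It ran from -0.43 to 0.34, and its correlation with the family sum was -0.59, and -0.47 within groups. Its part in the family pattern was not tested. The lowest share of G and C was that of *Gm14434* (37.8%). In Res males this measure was -0.27, 0.13 and 0.27 in WT and -0.12, 0.24 and -0.43 in KO. It was 0.05 in WDA WT female 6, against a median of 0.04. The correlation of the family sum with library total was -0.26, and -0.56 within groups. With the summed markers of 5 liver cell types and of proliferation it was -0.08 to 0.15. Within groups these ranged from -0.41 for hepatocyte and -0.28 for endothelial markers to 0.25 for macrophage markers. Their part in the family pattern was not tested either.

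**Figure D5:**
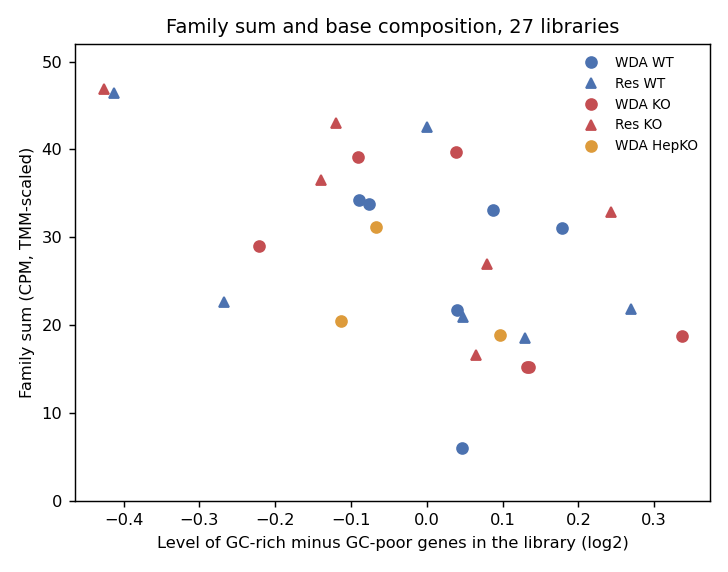
Family sum in CPM (y axis) against the log2 level of GC-rich minus GC-poor genes in the same library (x axis), 27 libraries, with colour for vector and shape for stage. The 2 libraries furthest left, Res KO male 11 and Res WT female 12, have the highest family sums, at 46.9 and 46.4 CPM, and WDA WT female 6 at 6.06 CPM lies near the middle of the x axis.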

How the data were processed

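RNA from whole liver of 27 mice was sequenced on the BGISEQ platform, and clean reads were aligned with HISAT to GRCm38.p6 and with Bowtie2 to reference genes. Versions and the quantification tool are not given in the sources used here. The authors deposited, per gene and library, an expected count (an estimated number of reads, not normalized) and an FPKM value (scaled for length and library total). Each mouse is 1 sample, and groups were taken from the labels. Between 7.34% and 8.09% of counts per table were not whole and were rounded for testing. A gene absent from a table was given 0. Of 17655 genes, 17533 (99.31%) matched RefSeq.

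Genes were filtered with filterByExpr (minimum count 10), scaled with TMM and tested with glmQLFit and glmQLFTest in edgeR 4.0.16 (R 4.3.3), with Benjamini-Hochberg adjustment over all genes at 0.05. DESeq2 1.42.0 was an alternative. Tests were checked on simulated data. Each SE is the fold change divided by the square root of its F value. Log2 CPM used a prior count of 2. Upstream bases came from RefSeq, and transcripts and reading frames (longest from ATG to stop) from GENCODE M21. Python 3.11.15 and Biopython 1.88 were used.

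Members, lists, the comparisons and the rule for named genes were chosen with earlier results of these data known. Named genes are the 5 members, up to 10 zinc finger neighbours by mean CPM, neighbours and corepressor genes past the threshold, the 5 genes outside the region with the highest and the 5 with the lowest Spearman correlation, and the 5 highest within groups. Zinc finger neighbours were taken by symbol only. *Gm2004*, *Gm14308*, *Fam217b*, 2 further corepressor genes, the single cell type markers given for WT males and the genes holding the shared stretch were named after their values were seen. The summed level of 1 list of marker genes is not reported here. Alternatives are listed in the closing section.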

Additional observations from a re-analysis of the deposited data

Results flagged for a closer look

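Groups of 3 mice are too small for a test of single outlying mice, and none was made. WDA and Res mice are different animals, so no mouse was followed between stages. In 3 genes, the Res mice of one group all lay on one side of its WDA mice, and those of another group all lay on the opposite side. Such separation of Res from WDA, in either direction, was common among all genes tested. It was seen in 36.1% in WT males, 13% in KO males, 20.6% in WT females and 40.6% in KO females. The share of all genes that separated in opposite directions was not counted. The contrast between the opposite differences was not tested in these 3 genes. *Gm14410* was lower in Res than on WDA in WT males, by -0.63 on the log2 scale, and higher in KO males, by 1.14. *Gm14296*, a neighbour whose longest reading frame held 0 zinc fingers, was higher in Res in WT females, by 1.63, and lower in WT males, by -1.63. Within single comparisons edgeR did not call *Gm14296* (adjusted p = 0.413 in WT females and 0.0604 in WT males). DESeq2 called it in WT males (adjusted p = 0.00406) but not in WT females (adjusted p = 0.298). *Zfp972*, another neighbour at low level, was higher in Res in WT females, by 1.09, and lower in KO females, by -0.31. *Gm14410* was among the genes chosen on these counts.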

How the results depend on the processing

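No paired analysis was possible because mouse numbers name single mice within each experiment and do not link mice of different groups. The family sum was recomputed in 12 comparisons with RLE and upper quartile scaling, library totals alone, FPKM and a prior count of 0.5. It was also recomputed with the 15 neighbours that are zinc finger genes by symbol added. Those 15 leave out *Gm2026*, *Gm4724*, *Gm2007*, *Gm6710* and *Gm2004*, whose longest reading frames held 13 to 17 zinc fingers. Further alternatives were *Gm14434* left out (chosen after seeing the data) and each mouse left out. The family sum moved by more than the within-group SD once: Res minus WDA in WT males was -0.54 with library totals alone, against -0.68. Where the spread between mice is wide, large shifts stay under this limit. In WDA females, KO minus WT went from 0.69 to -0.01 without WT mouse 6, under its SD of 0.997. The number of neighbours called moved as follows. In KO against WT in Res females it was 2 with DESeq2, with a shared spread and without WT mouse 1, against 0. In Res against WDA in WT males it was 6 with DESeq2, 0 with a shared spread, 1 between the outermost members only, and 0 to 7 without 1 mouse, against 2. In KO females it was 1 with DESeq2 and 0 to 3 without 1 mouse, against 0. Over 24 mice it was 1 with DESeq2, 1 with a shared spread and 0 with at least 10 counts in every library, against 2, and for males against females 1 with a shared spread, against 0. For the KO effect by sex it was 0 to 2 without 1 mouse, against 0. Of the 5 genes outside the region with the highest Spearman correlation, 3 remained with Pearson correlation, 3 within groups and 5 with RLE scaling. Of the 5 lowest, 3, 1 and 4 remained. At 3 mice a group the spread between mice, and for *Gm14434* the few reads, limit what can be seen.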

Other observations

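Zinc finger genes elsewhere in the genome did not all move like the chromosome 2 cluster. Of 350 listed genes with a Zfp symbol outside the region, 305 were tested in Res males, KO against WT, and their median log2 fold change was 0.02, with 163 positive and 142 negative, with 0 called by edgeR, 0 at an unadjusted p under 0.05 and 0 called by DESeq2. Without Res KO male 5 it was -0.03, with 136 positive and 169 negative. In Res females, KO against WT, the median was -0.22, with 206 of 299 negative, 0 called by edgeR, 79 at an unadjusted p under 0.05 and 22 called by DESeq2. In WT males, Res against WDA, the median was 0.13, and 9 rose and 1 fell of 298 tested (3.36%, against 11% of all genes), whereas the median of the 18 chromosome 2 neighbours was -0.42. Over the 24 mice, Res against WDA, 55 of 318 rose and 10 fell (20.4%, against 29.5% of all genes), with a median of 0.08. Differences between these lists were not tested.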
